A study of Rattus norvegicus with 21 samples.

Results

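The collagens, matrix metalloproteinases (MMPs), tissue inhibitors of metalloproteinases (TIMPs) and 7 other extracellular matrix genes were followed in RNA from cultured rat pancreatic islets. Members were chosen by symbol: every numbered collagen, MMP and TIMP gene, with Lum, Dcn, Cilp, Sparc, Postn, Fn1 and Fbn1. Among 17025 genes with counts, 56 symbols matched, and 44 of them reached at least 1 CPM (a count per 1e6 counts in genes) in 3 or more of the 21 libraries. These 44 held 9 of 10 fibrillar collagens, 5 of 5 basement membrane collagens, 7 of 7 other secreted collagens, 1 of 3 transmembrane collagens, 7 of 7 non-collagen matrix genes, 6 of 14 secreted MMPs, 5 of 6 membrane-bound MMPs and 4 of 4 TIMPs. Col4a2 and Col6a1 were not analysed here. The genes below the limit were Col2a1, Col17a1, Col23a1 and the MMPs numbered 3, 7, 8, 10, 20, 21, 23, 27 and 28. Just inside it, Col4a4 reached 1 CPM in 3 libraries and Col4a3 in 5; just outside, Mmp7 reached 1.40 CPM in 1 library and Mmp3 had at most 0.835 CPM.

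Islets are endocrine cell clusters that lie against a basement membrane shared with their capillaries, and a small number of stellate cells, pericytes and fibroblasts among them can lay down fibrillar matrix. Fibrillar collagens form the tensile fibres of connective tissue, network-forming collagens build basement membranes, and small proteoglycans and adaptor proteins bind and space the fibres. MMPs cut these proteins, and TIMPs block the MMPs.

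Primary islets of Sprague Dawley rats came from 3 separate isolations, called preparations here, each a pool of the islets of 8 rats that was divided over the culture conditions. Glucolipotoxic (GLT) medium held 27 mM glucose and 300 µM palmitate, and control medium held 11 mM glucose without palmitate. The sample records name compounds D and E by letter and the sample sheet names them by code, with no structure given in either, and both were added to GLT medium at 300 nM. Culture lasted 3 h or 24 h. The conditions were 24 h GLT with compound E (preparations 1 and 2), 24 h GLT with compound D, 24 h GLT, 3 h GLT with compound E (preparation 2 alone) and 3 h GLT with compound D, with 3 h control as the unexposed group. They carry the numbers 8, 6, 4, 7, 5 and 1 in that order. A further pair is disputed. The sample records call condition 2 the 24 h control and condition 3 the 3 h GLT group, while the deposited sample sheet gives these names the other way round. All 6 libraries of conditions 2 and 3 are therefore given by condition number, with both readings, and the other 15 libraries are undisputed. Each condition had 3 libraries, 1 per preparation, unless stated, and values are listed in the order of preparations 1, 2 and 3.

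Each library held 22.3 M to 40.2 M counts in genes (median 27.8 M), and the insulin genes took 9.32% to 45.9% of them. The 7 matched beta cell markers summed to at least 79238 CPM in every library. The library of condition 3 from preparation 2 stood apart. In it 23.4% of entries were reads with several alignments, against at most 8.51% in the other libraries. Its Col1a2 level, for a chain of type I collagen, was 0.331 CPM, against 244 and 240 CPM in the other libraries of condition 3. Its Col15a1 level was 2.16 CPM, against 70.3 and 61.9 CPM in those others. Member calls between condition 3 and another condition are given with and without this library. The medians, marker tests and counts from gene lists include it.

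The promoters of Mmp13 and Col18a1 are shown because these genes passed both for compound D against 24 h GLT and for compound E against compound D, and that of Mmp12 because it was the only other member with both motifs searched. Each runs from 250 bases before to 50 bases after the gene's start, in RefSeq's rat assembly GRCr8. Mmp13 lies at chr8:12782579-12782878, Mmp12 at chr8:12866402-12866701 and Col18a1 at chr20:11473395-11473694, all on the plus strand. Capitals mark TGANTCA, the letters bound by AP-1 factors, and TATAAA, each searched on both strands.
Mmp13: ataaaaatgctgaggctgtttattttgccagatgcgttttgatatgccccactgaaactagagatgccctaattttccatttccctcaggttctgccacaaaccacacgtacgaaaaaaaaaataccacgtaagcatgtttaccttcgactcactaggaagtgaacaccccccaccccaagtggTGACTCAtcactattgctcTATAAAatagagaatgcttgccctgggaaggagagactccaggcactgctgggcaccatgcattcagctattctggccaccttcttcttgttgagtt
Mmp12: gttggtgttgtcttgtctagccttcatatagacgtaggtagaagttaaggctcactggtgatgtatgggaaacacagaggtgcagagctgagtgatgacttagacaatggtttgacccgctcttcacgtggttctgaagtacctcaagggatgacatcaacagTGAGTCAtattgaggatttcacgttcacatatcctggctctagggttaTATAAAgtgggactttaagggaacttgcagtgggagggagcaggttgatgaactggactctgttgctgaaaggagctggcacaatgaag
Col18a1: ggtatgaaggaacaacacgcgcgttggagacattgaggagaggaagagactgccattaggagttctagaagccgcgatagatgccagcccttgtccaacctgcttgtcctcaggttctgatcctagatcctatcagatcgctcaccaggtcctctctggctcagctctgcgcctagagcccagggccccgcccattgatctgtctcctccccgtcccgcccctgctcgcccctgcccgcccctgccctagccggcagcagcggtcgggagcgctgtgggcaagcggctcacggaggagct
RefSeq's table held a promoter for 32 of the 44 members. The AP-1 letters occurred in 2 of these 32, Mmp12 and Mmp13, and in 7.33% of all 33469 promoters in the table. The TATAAA letters occurred in 5, Col13a1, Col1a2, Mmp12, Mmp13 and Postn, and in 14.2% of all promoters. In Mmp13 the AP-1 letters began 66 bases and the TATAAA letters 47 bases before the gene's start. Neither set of letters was found in this window of Col18a1. A match describes the letters and is not evidence of binding.

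Compound D under 24 h GLT was accompanied by lower levels of Col18a1 and Mmp13, the 2 members of 44 that passed, and no member passed in the other direction. A member passed at an adjusted p below 0.05 over all 12576 genes tested with edgeR. Some counts below come from alternative fits. The share of all genes called in those fits is not given, so such counts are not set against a background. Over all genes, 4.08% passed in this comparison, so the members' share of 4.55% lay near the background. Levels are given in CPM scaled by library composition, and differences as fitted log2 fold changes with standard errors (SE).

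Col18a1 (NCBI gene 85251) encodes a basement membrane collagen from which the fragment endostatin is cut. It had 48.5, 41.0 and 37.7 CPM in 24 h GLT with compound D, against 81.6, 99.3 and 129 CPM in 24 h GLT. Every library with compound D lay below every library without it. The fitted difference was -1.26 (SE 0.19, adjusted p = 0.0024), which is 2.40-fold lower.

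Mmp13 (NCBI gene 171052) encodes collagenase 3, a secreted protease that cuts fibrillar collagens. It had 23.2, 4.62 and 26.4 CPM in 24 h GLT with compound D, against 144, 68.1 and 159 CPM in 24 h GLT. The groups did not overlap, and preparation 2 was the lowest in both. The difference was -2.81 (SE 0.58, adjusted p = 0.0146), or 7.03-fold lower. Leaving out 24 h GLT preparation 1 or 3, or the compound D library of preparation 2, put the adjusted p of Mmp13 at 0.0524 to 0.0692. Col18a1 kept its call without any 1 library, and both calls were lost without all libraries of preparation 1 or of preparation 3.

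The other 42 members gave no call for compound D at 24 h. Mmp17, a protease anchored in the membrane by a lipid, had 3.29, 3.97 and 2.98 CPM in 24 h GLT with compound D, against 1.47, 1.39 and 1.49 CPM in 24 h GLT. Those groups did not overlap, but the difference of 1.22 (SE 0.43) had an adjusted p of 0.14. With so few libraries in a group, levels can lie apart without any effect. How often this occurred over all genes is not given. Lack of overlap, for called and uncalled members alike, therefore describes the levels throughout and is not a test. Col11a2, a minor fibrillar collagen, had 9.34, 11.1 and 6.22 CPM with compound D and 5.95, 4.13 and 5.97 CPM without it, again with no overlap (0.71, SE 0.27, adjusted p = 0.18). For Col1a1, a chain of type I collagen, the difference was -0.14 (95% interval -0.85 to 0.56), and for Col3a1, type III collagen, -0.12 (-0.75 to 0.50). Fn1, fibronectin, differed by -0.45 (-1.03 to 0.12). The median difference over the 44 members was 0.04, against 0.01 over all genes.

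**Figure D1:**
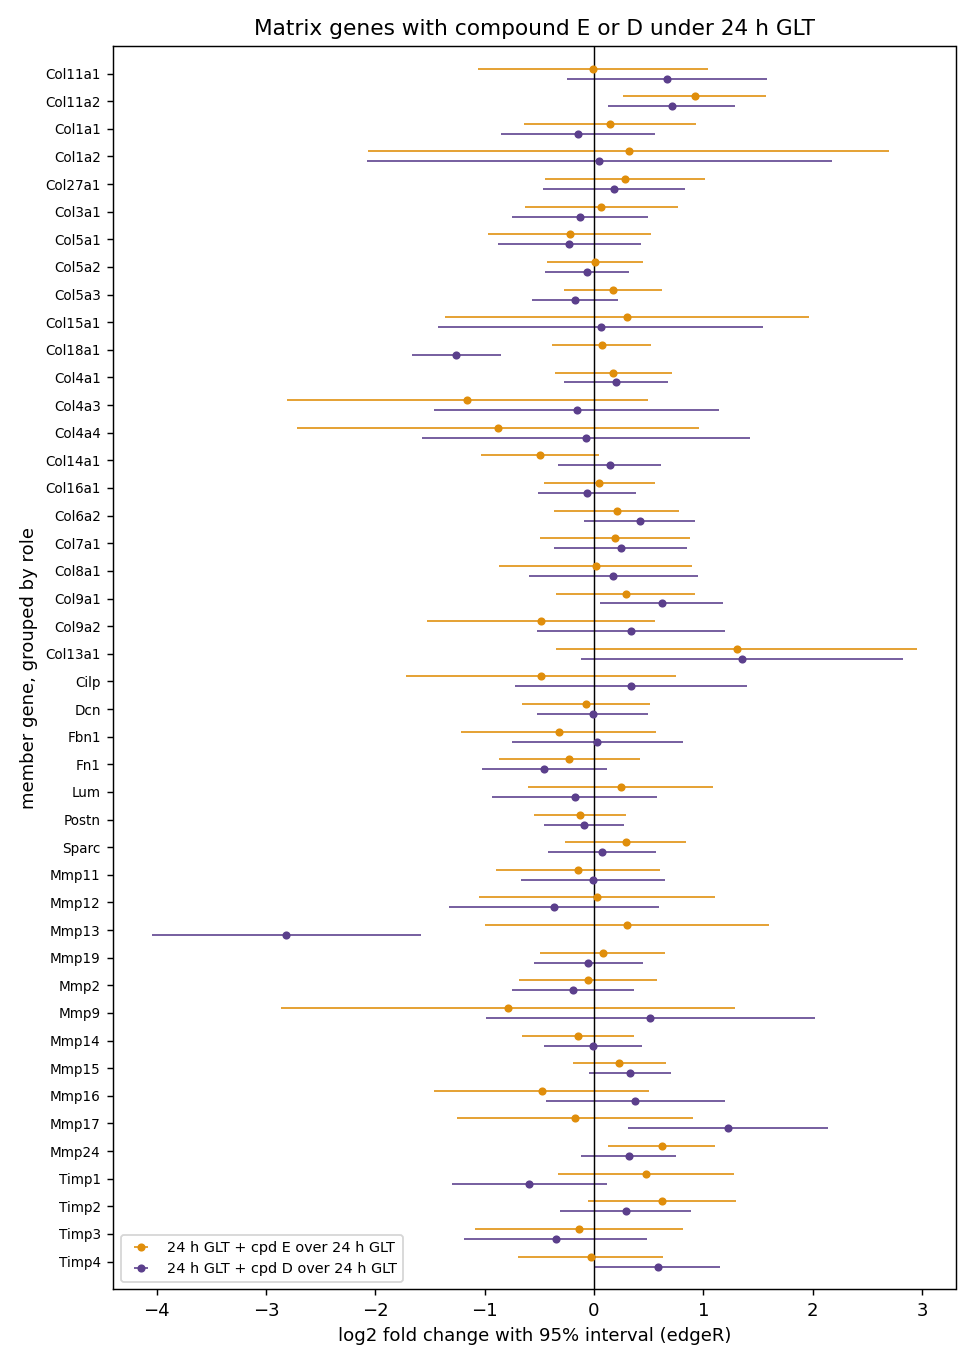
Fitted log2 fold change of each of the 44 members with its 95% interval, for 24 h GLT with compound E over 24 h GLT (orange) and for 24 h GLT with compound D over 24 h GLT (purple). With compound D, Mmp13 (-2.81) and Col18a1 (-1.26) lie furthest to the left, while with compound E they lie at 0.30 and 0.07 with intervals across 0.

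Compound E under 24 h GLT gave no call among the members. By edgeR 0 of 12576 genes passed (0.0%), 813 genes and 2 members had an unadjusted p below 0.05, and DESeq2 also called 0 members. Col18a1 had 96.0 and 106 CPM in 24 h GLT with compound E (preparations 1 and 2), against 81.6, 99.3 and 129 CPM in 24 h GLT. These ranges overlapped, and the difference was 0.07 (95% interval -0.38 to 0.52). Mmp13 had 185 and 93.8 CPM with compound E, against 144, 68.1 and 159 CPM without it, and its difference was 0.30 (-0.997 to 1.60). An interval this wide does not show that compound E left Mmp13 unmoved. The members with the smallest p were Col11a2, with 11.9 and 8.58 CPM with compound E and 5.95, 4.13 and 5.97 CPM in 24 h GLT (0.92, SE 0.31, adjusted p = 0.566), and Mmp24, a membrane-bound MMP best known from the nervous system (0.62, SE 0.23, adjusted p = 0.566). The members' median was 0.04, the same as over all genes. Without the compound E library of preparation 2, a single library with compound E remained, assumed to vary like the other groups. Members were called in that fit, but they are not counted here.

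The compounds were compared directly in 1 pair, E against D at the same dose and time. Col18a1 and Mmp13 were higher with compound E, and no other member of the 44 passed. The members' share of 4.55% lay near the 3.01% of all genes that passed. Col18a1 had 96.0 and 106 CPM with compound E and 48.5, 41.0 and 37.7 CPM with compound D, with no overlap (1.33, SE 0.21, adjusted p = 0.00345). Mmp13 had 185 and 93.8 CPM with compound E and 23.2, 4.62 and 26.4 CPM with compound D, also with no overlap (3.12, SE 0.63, adjusted p = 0.0161). This comparison shares its compound D libraries with the comparison of compound D with 24 h GLT. Both genes were higher with compound E in each of the 2 preparations that had it. Without the compound E library of preparation 1, the adjusted p of Mmp13 was 0.181, and with a term for libraries rich in ambiguous reads 1 member remained called. Fits without preparation 2, or without its compound E library, left a single library with compound E, assumed to vary like the other groups. They called further members, which are not counted here. Neither Col18a1 nor Mmp13 kept its call without all libraries of preparation 1 or all of preparation 3. With scaling by library size alone, which moves the median of all genes by -0.39, or with these 2 conditions fitted alone, 0 members were called.

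For the other members the difference between the compounds was not called. Timp1, an inhibitor induced in many damaged tissues, had 125 and 74.1 CPM with compound E, against 41.5, 61.2 and 143 CPM with compound D. The preparation 3 library, with compound D only, was the highest of these, and the difference was 1.07 (95% interval 0.28 to 1.87, adjusted p = 0.137). Mmp17 had 1.68 and 1.09 CPM with compound E and 3.29, 3.97 and 2.98 CPM with compound D (-1.40, SE 0.51, adjusted p = 0.154). The intervals for Col1a1 (-0.49 to 1.07), Col3a1 (-0.51 to 0.89) and Fn1 (-0.42 to 0.88) held 0.

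The effect of time under compound D (24 h against 3 h of GLT medium) uses undisputed libraries only. There 6 of 44 members passed, 3 higher and 3 lower at 24 h, against 6.11% of all genes. The 3 that rose belong to the non-collagen matrix. Dcn, decorin, a small proteoglycan that binds collagen fibres, had 22.9, 14.3 and 10.8 CPM at 24 h against 8.23, 6.20 and 7.41 CPM at 3 h. Those groups did not overlap (1.13, SE 0.24, adjusted p = 0.0148). Lum, lumican, a proteoglycan of the same family, had 12.4, 11.2 and 2.92 CPM at 24 h against 3.22, 2.99 and 2.64 CPM at 3 h. The preparation 3 library at 24 h lay among the 3 h libraries, so these groups overlapped (1.47, SE 0.37, adjusted p = 0.0308). Fn1 had 1069, 683 and 1089 CPM at 24 h against 510, 428 and 448 CPM at 3 h (1.04, SE 0.27, adjusted p = 0.0354).

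The 3 members that fell with time under compound D were collagens outside the main fibre-forming types. Col27a1, a fibrillar collagen known from cartilage, had 285, 142 and 180 CPM at 24 h against 918, 495 and 932 CPM at 3 h (-1.92, SE 0.31, adjusted p = 0.00304). Col13a1, a transmembrane collagen of cell-matrix contacts, had 0.595, 0.993 and 0.214 CPM at 24 h against 3.28, 4.08 and 4.99 CPM at 3 h (-2.86, SE 0.57, adjusted p = 0.00908). In counts these were 8 to 23 reads at 24 h and 97 to 140 reads at 3 h. Col13a1 met the limit for members mainly through the conditions where it is high. Its calls here and below, and their part in the counts of calls, are therefore no separate support. Col9a1, a collagen that sits on the surface of fibres, had 23.8, 17.0 and 13.8 CPM at 24 h against 40.9, 26.5 and 49.7 CPM at 3 h (-1.09, SE 0.27, adjusted p = 0.0264). None of these 3 overlapped between times.

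The calls of Col27a1 and Col13a1 between times held without any 1 library. Both were lost without all libraries of preparation 3, and that of Col13a1 also without all of preparation 1. Col9a1, Dcn, Lum and Fn1 each lost theirs without at least 3 of the libraries compared, with adjusted p of 0.0658 to 0.149. Endothelial markers moved in the same comparison: 4 of 9 tested (Tek, Plvap, Kdr and Flt1) fell, with summed levels of 30.5 to 125 CPM at 24 h and 186 to 226 CPM at 3 h. Of 9 stellate and pericyte markers tested, Cspg4 fell, and their summed level was 111 to 244 CPM at 24 h and 165 to 186 CPM at 3 h. Fibroblast markers had 0 of 5 called (median -0.34). Both red cell markers tested, the globins Hba-a2 and Hbb, fell (median -3.10), and the summed red cell level was 0.563 to 1.04 CPM at 24 h and 3.10 to 12.4 CPM at 3 h. Of the markers matched, Cnn1 had no count in 15 of 21 libraries. The stellate and pericyte sum came mainly from Vim (50285 counts over all libraries) and Pdgfrb (35128), against at most 8876 for any other. The part of these cells in the members' changes was not tested. In bulk RNA, fewer cells of a type and less RNA per cell cannot be told apart.

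Under 3 h GLT with compound D against 3 h control, no member passed by edgeR or DESeq2, and 0.103% of all genes passed by edgeR. At an unadjusted p below 0.05 there was 1 member, Mmp17, with 2.27, 2.60 and 0.962 CPM in 3 h GLT with compound D and 1.04, 1.02 and 0.616 CPM in 3 h control. These levels overlapped (1.11, SE 0.44, adjusted p = 0.621). Col1a1 had 104, 122 and 84.3 CPM in 3 h GLT with compound D and 126, 111 and 140 CPM in 3 h control, which overlapped. The members' median was -0.18, against -0.04 over all genes, and 31 of 44 fitted differences were below 0.

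**Figure D2:**
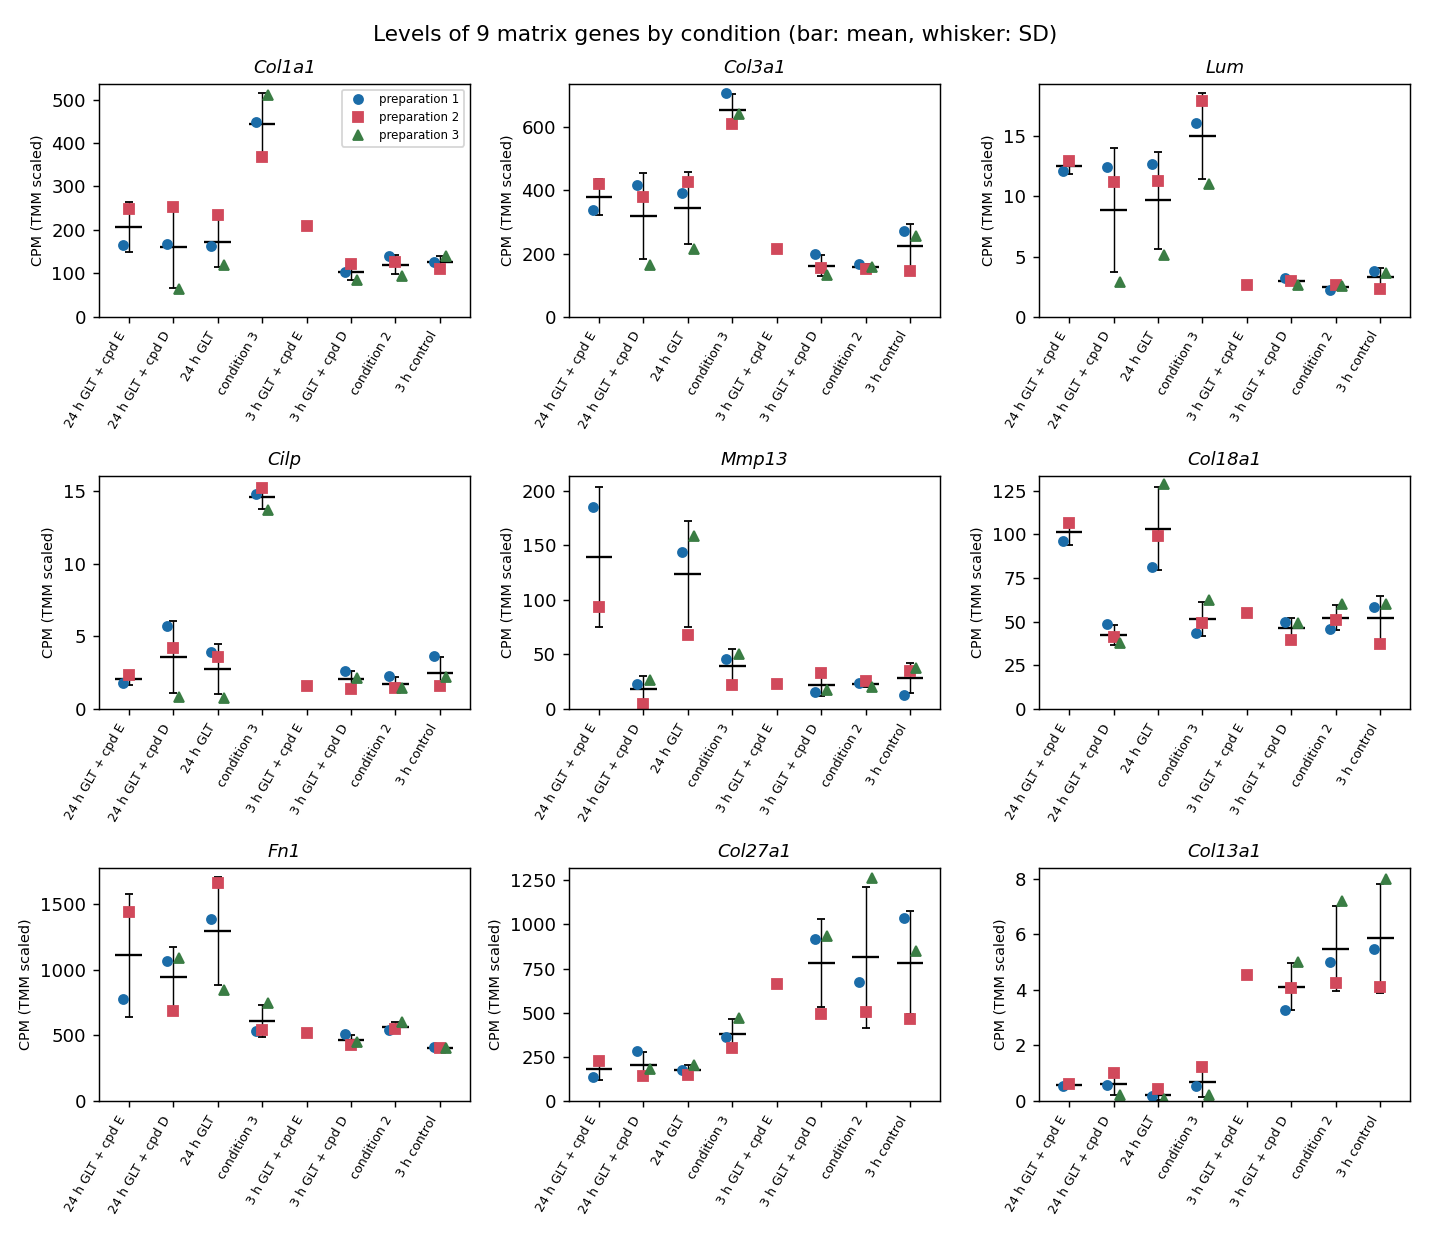
Levels of 9 members in every library (CPM scaled by library composition, linear axes from 0), by condition; each point is 1 library, its shape and colour mark the preparation, and the bar and whisker are the mean and SD. In condition 3 Col1a1 stands at 369 to 511 CPM, above the 63.0 to 253 CPM of every other library, and Col13a1 is at or below 1.23 CPM in conditions 3, 4, 6 and 8.

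Fibrillar collagens and non-collagen matrix genes were among the members higher in condition 3 than in condition 1. By the sample records this comparison is 3 h GLT against 3 h control, and by the sheet it is 24 h against 3 h of control culture. In it 7 of 44 members passed, 6 higher and 1 lower, where 0.692% of all genes passed, and the members' median was 0.41 against -0.03 over all genes. The fibrillar collagens had a median of 0.80, with 7 of 9 above 0 and 2 called. All 7 non-collagen matrix genes were above 0, with 3 called and a median of 1.03.

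Col1a1 (NCBI gene 29393) had 448, 369 and 511 CPM in condition 3 against 126, 111 and 140 CPM in condition 1, with no overlap (1.83, SE 0.34, adjusted p = 0.0247). Col3a1 had 709, 609 and 643 CPM in condition 3 against 270, 144 and 256 CPM in condition 1 (1.54, SE 0.30, adjusted p = 0.0311). Col7a1, the collagen of anchoring fibrils, had 16.0, 13.5 and 14.4 CPM in condition 3 against 7.98, 3.14 and 5.08 CPM in condition 1 (1.47, SE 0.29, adjusted p = 0.0333). In all 3 genes the lowest library of condition 3 exceeded the highest of condition 1.

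Among the matrix genes that coat or bridge fibres, Lum had 16.1, 17.9 and 11.0 CPM in condition 3 against 3.83, 2.34 and 3.64 CPM in condition 1 (2.13, SE 0.37, adjusted p = 0.0202). Cilp, a cartilage matrix protein, had 14.8, 15.2 and 13.7 CPM in condition 3 against 3.67, 1.57 and 2.20 CPM in condition 1 (2.61, SE 0.51, adjusted p = 0.0316). Postn, periostin, an adaptor protein of healing and remodelling tissue, had 140, 117 and 192 CPM in condition 3 against 77.9, 55.6 and 112 CPM in condition 1 (0.88, SE 0.17, adjusted p = 0.034). These 3 did not overlap either. Col13a1 was the called member that was lower, with 0.547, 1.23 and 0.233 CPM in condition 3 against 5.46, 4.09 and 7.98 CPM in condition 1 (-3.21, SE 0.57, adjusted p = 0.0202).

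The calls of condition 3 against condition 1 had adjusted p of 0.0202 to 0.034. Without the library of condition 3 from preparation 2, Col1a1 (2.07, SE 0.34, adjusted p = 0.0244) and Col13a1 (-3.88, SE 0.65, adjusted p = 0.0263) stayed called and Col1a2 reached 1.60 (SE 0.32, adjusted p = 0.0618). Each of the 7 calls was lost without at least 4 of the 6 libraries compared, and 0 to 2 members were called when 1 of those 6 was left out. With these conditions fitted alone there were 0 calls, with DESeq2 13, without the preparation as a term 1, and with library size alone 2.

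Endothelial markers were lower in condition 3: Plvap and Esam, of 9 tested, passed, and the summed level was 83.6 to 123 CPM in condition 3 against 210 to 250 CPM in condition 1. The summed stellate and pericyte level was 233 to 268 CPM in condition 3 and 193 to 238 CPM in condition 1, with 0 of 9 called. For fibroblast markers the sums were 16.8 to 28.7 CPM in condition 3 and 15.2 to 21.6 CPM in condition 1, with 0 of 5 called (median -0.05). The endothelial sum was 186 to 255 CPM in every library of conditions 1, 2, 5 and 7 and 30.5 to 125 CPM in every library of conditions 3, 4, 6 and 8. Of these, conditions 1, 5 and 7 are undisputed 3 h cultures and conditions 4, 6 and 8 undisputed 24 h cultures. Col13a1 split the libraries the same way, with at least 3.28 CPM in the first set and at most 1.23 CPM in the second. So did the summed red cell level, at 3.10 to 12.4 CPM in the first set and 0.188 to 1.06 CPM in the second. Col13a1 became a member mainly through the first set. Before scaling it reached 1 CPM in 11 libraries, among them condition 3 preparation 2 of the second set, with 41 reads. In the second set it had 2 to 41 reads a library, and its split is no separate support. Hba-a2 and Hbb were lower in condition 3 than in condition 1 (-3.58, SE 0.54, and -4.41, SE 0.79). Groups were not reassigned from these levels, and the part of endothelial and red cells in the members' differences was not tested.

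Set against condition 3, 3 h GLT with compound D (condition 5) gave the longest list of members. By the records this is compound D under 3 h GLT, and by the sheet it sets 3 h GLT with compound D against 24 h control. In it 13 of 44 members passed, 12 lower and 1 higher, against 6.93% of all genes, and the members' median was -0.48, with 0.0 over all genes. This comparison shares its condition 3 libraries with the one above. Of the fibrillar collagens 5 of 9 were lower: Col3a1 had 199, 155 and 132 CPM in condition 5 against 709, 609 and 643 CPM in condition 3 (-2.04, SE 0.30, adjusted p = 0.0022). Col1a1 had 104, 122 and 84.3 CPM in condition 5 against 448, 369 and 511 CPM in condition 3 (-2.16, SE 0.34, adjusted p = 0.00305). In neither gene did the groups overlap.

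The type V collagen chains, which regulate the width of fibres, fell together in condition 5 against condition 3. Col5a1 differed by -1.15 (SE 0.31), Col5a2 by -0.93 (SE 0.18) and Col5a3 by -0.98 (SE 0.19). Of the matrix genes, Lum had 3.22, 2.99 and 2.64 CPM in condition 5 against 16.1, 17.9 and 11.0 CPM in condition 3 (-2.32, SE 0.38). Dcn had 8.23, 6.20 and 7.41 CPM in condition 5 against 18.8, 18.4 and 20.4 CPM in condition 3 (-1.41, SE 0.24). Postn (-1.18, SE 0.18), Cilp (-2.87, SE 0.52), Sparc, a collagen-binding secreted protein (-0.91, SE 0.23), and Col7a1 (-1.52, SE 0.29) were lower too, and all of these groups were apart. Col13a1 was higher, with 3.28, 4.08 and 4.99 CPM in condition 5 against 0.547, 1.23 and 0.233 CPM in condition 3 (2.66, SE 0.56, adjusted p = 0.0122).

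Mmp9, gelatinase B, was the called protease in that comparison. It had 0.576, 0.385 and 2.10 CPM in condition 5 against 13.1, 0.992 and 37.8 CPM in condition 3, and the libraries overlapped (-3.69, SE 0.78, adjusted p = 0.0128). The library that stands apart held the lowest Mmp9 level of condition 3. Without that library 13 members were called: Col1a2 joined (-1.98, SE 0.32, adjusted p = 0.00613) and Col5a1 dropped out. Mmp9, Col13a1, Col5a1 and Sparc each lost their call without at least 3 of the 6 libraries, while the other 9 kept theirs without any 1. With only these conditions fitted, 0 members were called, as without all libraries of preparation 1. Here Pdgfra, 1 of 9 stellate and pericyte markers, was lower in condition 5, with a summed level of 165 to 186 CPM in condition 5 and 233 to 268 CPM in condition 3. Of 9 endothelial markers 4 were higher (Plvap, Tek, Esam and Kdr), as were Hba-a2 and Hbb (median 3.71), and the macrophage marker Emr1, of 10 tested, was lower. Their part in the members' differences was not tested.

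For 24 h GLT (condition 4) against condition 3 the records read 24 h against 3 h of GLT, and the sheet reads 24 h GLT against 24 h control. Here 10 of 44 members passed, 2 higher and 8 lower, against 5.97% of all genes, and the members' median was -0.50 against 0.0. Col18a1 had 81.6, 99.3 and 129 CPM in condition 4 against 43.3, 49.5 and 62.4 CPM in condition 3 (0.99, SE 0.19, adjusted p = 0.00818). Fn1 had 1385, 1658 and 847 CPM in condition 4 against 533, 541 and 750 CPM in condition 3 (1.10, SE 0.27, adjusted p = 0.0302). In both genes every library of condition 4 was above those of condition 3.

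The 8 lower members in condition 4 against condition 3 were collagens and matrix proteins. Col1a1 had 163, 234 and 119 CPM in condition 4 against 448, 369 and 511 CPM in condition 3 (-1.45, SE 0.34, adjusted p = 0.0225). Cilp had 3.96, 3.55 and 0.747 CPM in condition 4 against 14.8, 15.2 and 13.7 CPM in condition 3 (-2.58, SE 0.51, adjusted p = 0.0111). Postn had 76.7, 86.7 and 93.5 CPM in condition 4 against 140, 117 and 192 CPM in condition 3 (-0.78, SE 0.17, adjusted p = 0.0195). None of these 3 overlapped. The other 5 were Col14a1, a collagen on fibre surfaces (-0.97, SE 0.22), Col5a3 (-0.75, SE 0.19), Col9a1 (-1.03, SE 0.27), Col7a1 (-1.05, SE 0.29) and Col27a1 (-1.09, SE 0.31). Mmp13 had 144, 68.1 and 159 CPM in condition 4 against 46.1, 21.8 and 50.0 CPM in condition 3, without overlap, and did not pass (1.65, SE 0.55, adjusted p = 0.0923).

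Without the library that stands apart, 5 members of this comparison were called (Col18a1 higher; Col1a1, Postn, Cilp and Col14a1 lower). Col18a1 was the call that held without any 1 library, and 2 to 5 members were called when 1 of the 6 compared was left out. Without all libraries of preparation 1 or of preparation 3, Col18a1 lost its call too. DESeq2 called 16 members, 5 were called with these conditions fitted alone, 3 without the preparation as a term, and 1 with library size alone. Stellate and pericyte markers summed to 146 to 175 CPM in condition 4 and 233 to 268 CPM in condition 3, with Acta2 called lower of 9. Fibroblast markers had 0 of 5 called (median -0.17). Endothelial markers summed to 38.3 to 104 CPM in condition 4 and 83.6 to 123 CPM in condition 3, with 0 of 9 called. The part of those cells was not tested.

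Against condition 2, 24 h GLT (condition 4) had 10 of 44 members called, 6 higher and 4 lower, where 8.52% of all genes passed. By the records this is GLT against control at 24 h, and by the sheet it is 24 h against 3 h of GLT. The members' median was 0.13, against -0.02 over all genes. Mmp13 had 144, 68.1 and 159 CPM in condition 4 against 23.4, 26.0 and 19.99 CPM in condition 2 (2.33, SE 0.57, adjusted p = 0.0225). Col18a1 had 81.6, 99.3 and 129 CPM in condition 4 against 45.8, 50.8 and 59.99 CPM in condition 2 (0.98, SE 0.19, adjusted p = 0.00682). For both genes condition 4 lay wholly above condition 2.

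Lum, Dcn, Col3a1 and Fn1 were also higher in condition 4 than in condition 2. Lum had 12.7, 11.2 and 5.12 CPM in condition 4 against 2.23, 2.62 and 2.52 CPM in condition 2 (1.87, SE 0.38, adjusted p = 0.00868). Dcn had 16.4, 11.9 and 19.98 CPM in condition 4 against 6.94, 7.12 and 5.74 CPM in condition 2 (1.27, SE 0.24, adjusted p = 0.00672). Col3a1 had 393, 426 and 214 CPM in condition 4 against 166, 150 and 157 CPM in condition 2 (1.09, SE 0.30, adjusted p = 0.0354). Fn1 differed by 1.20 (SE 0.27, adjusted p = 0.0158). In all of them the groups were apart, while Col1a1, with 163, 234 and 119 CPM in condition 4 and 139, 126 and 94.99 CPM in condition 2, overlapped and did not pass (0.49, SE 0.33, adjusted p = 0.417).

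The members lower in condition 4 than in condition 2 were Col13a1, Col27a1, Col9a1 and Mmp15. Col13a1 had 0.188, 0.425 and 0.0711 CPM in condition 4, which were 2 to 11 reads a library, against 5.02, 4.25 and 7.19 CPM in condition 2 (-4.65, SE 0.64, adjusted p = 0.00085). Col27a1 had 176, 149 and 204 CPM in condition 4 against 673, 503 and 1262 CPM in condition 2 (-2.14, SE 0.32, adjusted p = 0.00131). Col9a1 had 14.02, 12.0 and 9.39 CPM in condition 4 against 28.3, 27.9 and 49.2 CPM in condition 2 (-1.57, SE 0.27, adjusted p = 0.00338). Mmp15, a membrane-bound MMP, had 12.3, 13.7 and 10.2 CPM in condition 4 against 17.0, 17.4 and 23.5 CPM in condition 2 (-0.68, SE 0.18, adjusted p = 0.0292). None of the 4 overlapped.

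Col13a1, Col18a1, Col27a1 and Col9a1 kept these calls without any 1 library. Without all libraries of preparation 1, Col13a1, Col18a1 and Col9a1 lost them. Without all of preparation 3, Col18a1, Col27a1 and Col9a1 did. Dcn without condition 2 preparation 3 (adjusted p = 0.053) and Lum without condition 2 preparation 1 (adjusted p = 0.0627) each lost theirs to 1 library, and Mmp13, Fn1, Col3a1 and Mmp15 to at least 4. With conditions 4 and 2 fitted alone 21 members were called, and without all libraries of preparation 1 there was 1. Of 9 endothelial markers 7 were lower (Plvap, Tek, Kdr, Esam, Tie1, Emcn and Flt1), with sums of 38.3 to 104 CPM in condition 4 and 220 to 255 CPM in condition 2. Cspg4 and Pdgfrb, of 9 stellate and pericyte markers, were lower, with sums of 146 to 175 CPM in condition 4 and 187 to 222 CPM in condition 2. Fibroblast markers had 0 of 5 called (median -0.77). Hba-a2 and Hbb were lower (median -5.08), with a summed red cell level of 0.188 to 0.391 CPM in condition 4 and 8.06 to 12.3 CPM in condition 2. Their part in the members' differences was not tested.

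**Figure D3:**
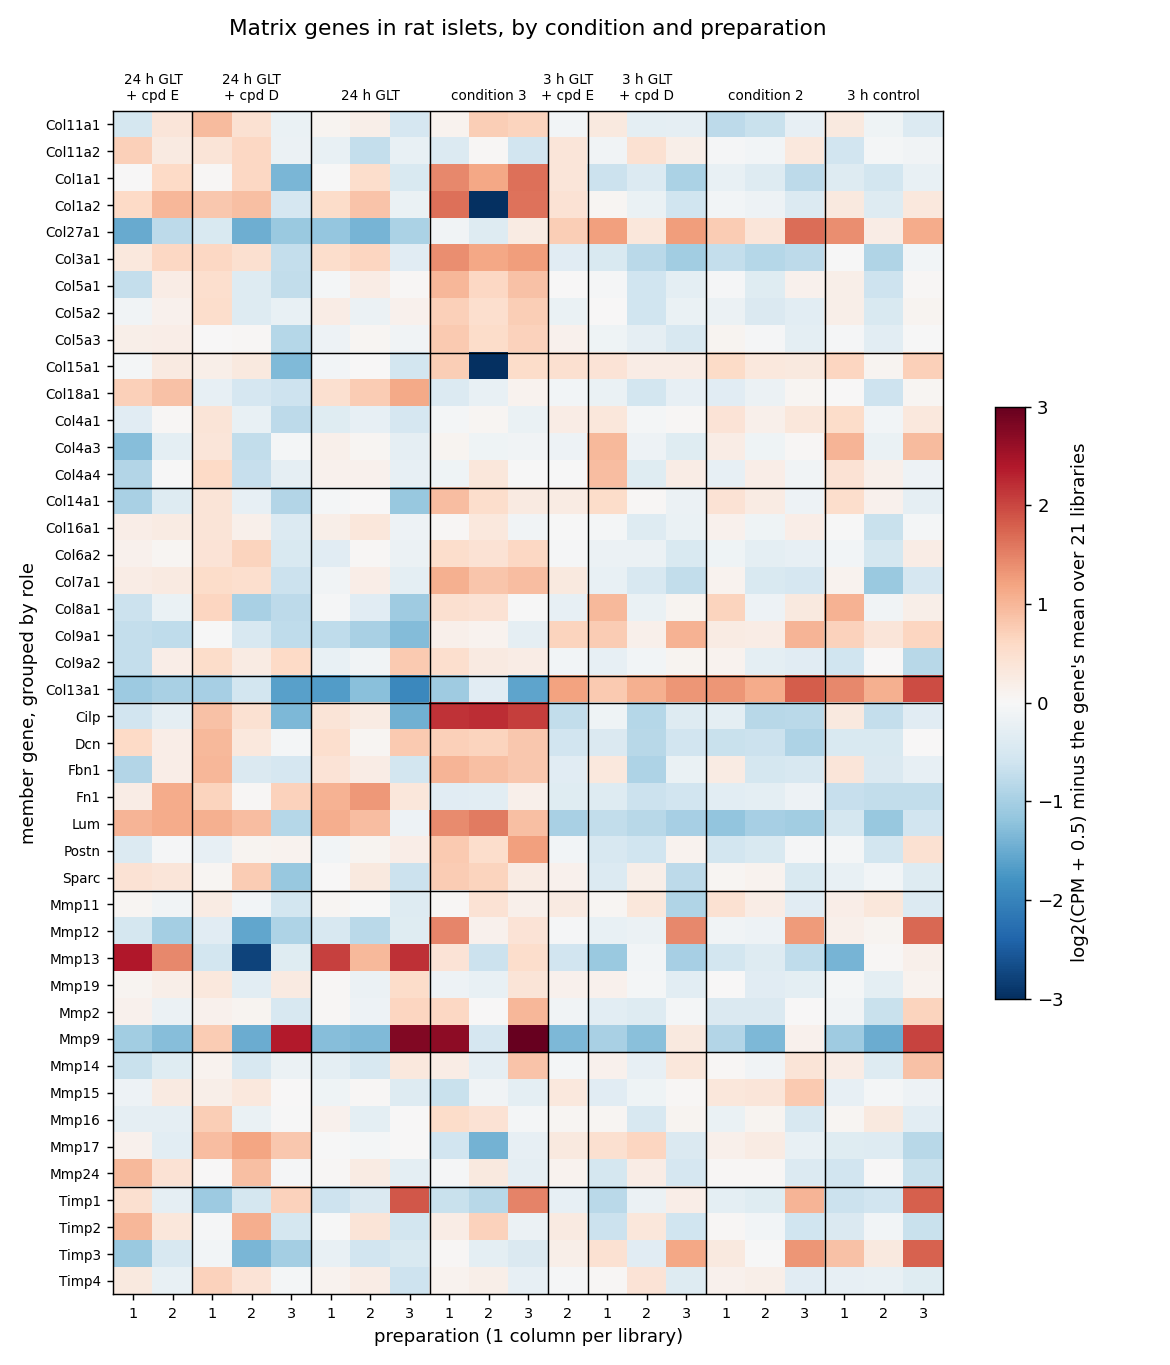
Log2 of CPM + 0.5 for each of the 44 members in each library, minus that gene's mean over the 21 libraries; rows are grouped by role, columns by condition and preparation, red is above the mean and blue below, with the colours ending at 3 either way. Condition 3 is red in Col1a1, Col3a1 and Cilp, where its libraries hold 369 to 511, 609 to 709 and 13.7 to 15.2 CPM, and its dark blue Col1a2 cell is the library at 0.331 CPM.

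Condition 2 gave no edgeR call among the members against condition 1, nor did condition 5 against condition 2. Condition 2 against condition 1, which is 24 h against 3 h control by the records and 3 h GLT against 3 h control by the sheet, had 0 of 44 members called by edgeR and 1 by DESeq2, with 1 at an unadjusted p below 0.05 and 2.31% of all genes passing by edgeR. That member was Mmp15, with 17.0, 17.4 and 23.5 CPM in condition 2 against 11.3, 12.9 and 11.9 CPM in condition 1. These groups were apart, and the difference was 0.68 (SE 0.18, adjusted p = 0.0582). Condition 5 against condition 2 is compound D under 3 h GLT by the sheet, and by the records it mixes time and treatment. It also had 0 members called by edgeR and 1 by DESeq2, with 0.493% of all genes passing. Mmp15 again had the smallest p, with 10.6, 12.2 and 13.7 CPM in condition 5 and 17.0, 17.4 and 23.5 CPM in condition 2 (-0.67, SE 0.18, adjusted p = 0.155). Both comparisons use the condition 2 libraries.

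The change of the GLT effect with time is the same contrast under both readings. No member passed it by edgeR or DESeq2, 10 members had an unadjusted p below 0.05, and 0.0716% of all genes passed. Col18a1 had the smallest p among the members, with the GLT difference larger at 24 h by 0.98 (SE 0.27, adjusted p = 0.24). Col14a1 came next with -1.03 (SE 0.31, adjusted p = 0.329). The members' median was -0.43 against 0.01 over all genes.

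**Figure D4:**
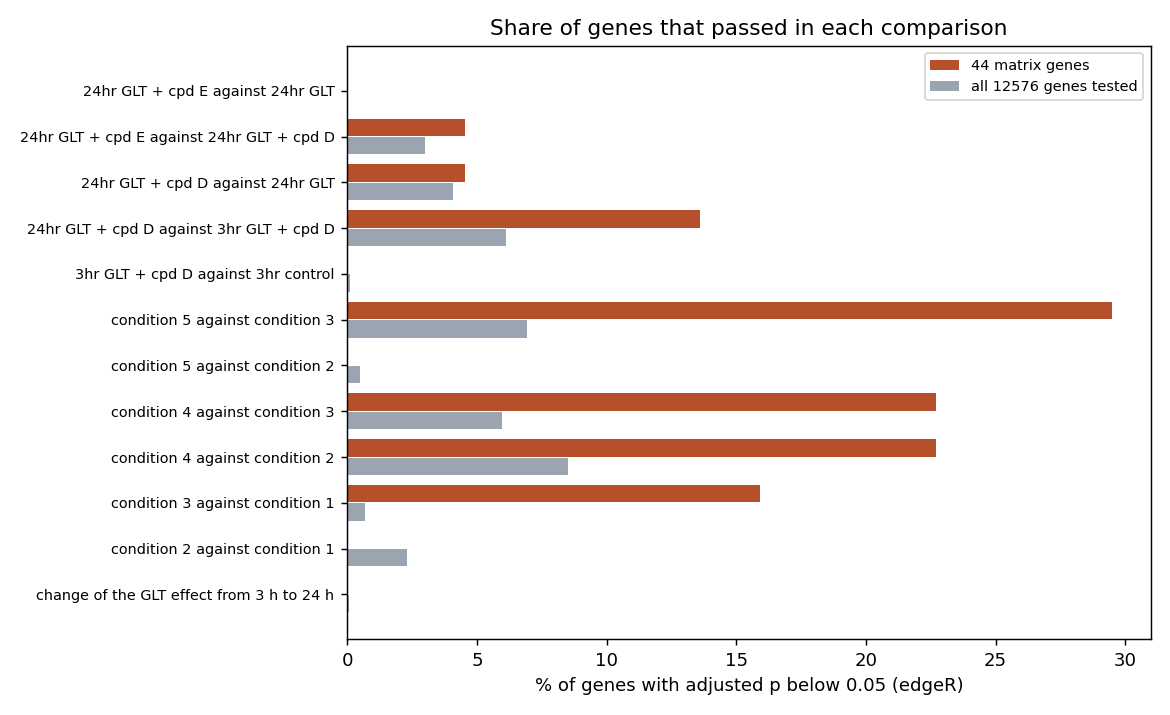
Share of the 44 matrix genes (upper bars) and of all 12576 genes tested (lower bars) that passed at an adjusted p below 0.05 in each comparison, in percent. The members' share is 29.5% for condition 5 against condition 3, 22.7% for condition 4 against each of conditions 3 and 2, and 4.55% for compound D against 24 h GLT.

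The TIMPs gave no call in any of the 12 comparisons. Timp1 was highest in preparation 3 of every group that had it. It had 41.5, 61.2 and 143 CPM in 24 h GLT with compound D, 57.6, 65.6 and 324 CPM in 24 h GLT, and 56.9, 60.02 and 311 CPM in 3 h control. In Timp1, preparation 3 was above the mean of preparations 1 and 2 in 6 of 6 conditions, by a median of 3.76-fold. Timp2 lay between 5.31 and 19.1 CPM over all libraries, and Timp4 between 0.676 and 2.41 CPM. Timp3, the inhibitor held in the matrix, had 15.6, 6.05 and 7.91 CPM in 24 h GLT with compound D against 22.7, 12.9 and 37.4 CPM in 3 h GLT with compound D, which overlapped (-1.22, SE 0.40, adjusted p = 0.0828).

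All 4 TIMP genes overlap another protein-coding gene in RefSeq: Timp1 with Syn1, Timp2 with Cep295nl, Timp3 with Syn3 and Timp4 with Syn2. Of the other members Col1a1 (Sgca), Mmp11 (Chchd10) and Mmp24 (Mmp24os) do as well. The strand setting of the counting is not given in the sources used here, so reads of these 7 members and of their partners may not be fully separated.

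Mmp2, gelatinase A, had 24.2, 23.4 and 15.5 CPM in 24 h GLT with compound D and 22.6, 19.7 and 34.5 CPM in 24 h GLT. Mmp14, which activates it, lay between 13.99 and 41.9 CPM over all libraries. Neither Mmp2 nor Mmp14 was called in any comparison. Mmp9 was above the mean of preparations 1 and 2 in preparation 3 in 6 of 6 conditions, by a median of 5.84-fold. Mmp12, macrophage elastase, had 6.86, 2.68 and 4.42 CPM at 24 h and 7.45, 7.71 and 24.9 CPM at 3 h under GLT with compound D, without overlap and without a call (-1.38, SE 0.45, adjusted p = 0.0868). Macrophage markers had 0 of 10 called there. Mmp11, Mmp16 and Mmp19 stayed between 0.499 and 6.47 CPM and were not called.

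Of the basement membrane collagens, Col18a1 alone was called in any comparison. Col4a1, the chain common to most basement membranes, had 402, 264 and 176 CPM in 24 h GLT with compound D against 390, 292 and 314 CPM in 3 h GLT with compound D, and 237, 258 and 216 CPM in 24 h GLT. Col15a1 had 48.0, 51.7 and 16.6 CPM in 24 h GLT with compound D and 39.5, 42.5 and 28.7 CPM in 24 h GLT. Col4a3 and Col4a4 were at most 2.20 CPM in every library. Col6a2, Col8a1, Col9a2, Col11a1, Col16a1 and Fbn1, the fibrillin of elastic microfibrils, had no call in any comparison either.

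Genes that act on the matrix but are not members were counted from a list of 91, of which 81 were tested. In 24 h GLT with compound D against 24 h GLT, Tgfb2, a growth factor that drives matrix synthesis, was higher (0.88, SE 0.17), and Plat, tissue plasminogen activator, was lower (-2.995, SE 0.25), and 3 of the 81 passed (3.70%, against 4.08% of all genes). In compound E against compound D, Plat (3.22, SE 0.27) and Plaur, the urokinase receptor (1.33, SE 0.25), were higher, and Tgfb2, Reck and Tgfbr1 were lower, with 6 of 81 called (7.41%, against 3.01% of all genes). None of the 81 passed for compound E against 24 h GLT. Under GLT with compound D, 3 rose (Nov, Tgfb2 and Plod1) and 3 fell (Spp1, Htra1 and Adamts1) at 24 h against 3 h, which was 7.41% of the list and 6.11% of all genes. For condition 5 against condition 3, 1 rose and 7 fell, among them Fap, a fibroblast surface protease (-1.35, SE 0.32), and the collagen-binding Bgn, biglycan (-0.97, SE 0.20), or 9.88% of the list against 6.93% of all genes. For condition 4 the counts were 4 higher and 5 lower against condition 3 (11.1%, with 5.97% of all genes), and 7 higher and 3 lower against condition 2 (12.3%, with 8.52% of all genes). A share near that of all genes, as for compound D against 24 h GLT and for 24 h against 3 h, is not a result about this list. Whether the other shares differ from those of all genes was not tested. Plat was the called gene of the list in condition 2 against condition 1 (1.54, SE 0.24) and in condition 5 against condition 2 (-1.22, SE 0.24), and the other comparisons had none.

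The genes most like Col1a1 and Lum were named by the correlation of log2 levels after the condition and preparation means were taken out, over 21 libraries that share those means and their depth. Among the nearest to Col1a1 were Fkbp10, a collagen-folding enzyme of the endoplasmic reticulum (r = 0.955), Col5a3 (0.902), Slc4a3 (0.896) and Sod3 (0.893). Nearest to Lum were Ccdc80 (0.950), Zfp219 (0.946), Plau (0.937), Sox7 (0.932) and Fmnl1 (0.929). Without the libraries of 24 h GLT with compound E, the values for Fkbp10 and Ccdc80 were 0.960 and 0.951.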

How the data were processed

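The deposited values are counts per gene for 21 libraries. Per the labels' protocols, the authors used TopHat2 2.0.3 with Bowtie2 2.0.0 on the rat build rn5 (read pairs of 100 bp) and counted with HTSeq. They then applied a DESeq variance-stabilizing transformation and modelled rat donors as a random effect. The annotation and strand setting are not given in the sources used here. The 5 entries that name no gene (10.3% to 18.7% of a column outside features, 4.92% to 23.4% with several alignments, 0.161% to 2.32% ambiguous, and others) entered neither the library sizes nor any test. No column lay outside the sample map.

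Libraries were fitted together in edgeR 4.0.16 (R 4.3.3): TMM scaling, filterByExpr (12576 genes, all 44 members), terms for condition and preparation, 2-sided quasi-likelihood tests, and Benjamini-Hochberg adjustment over all genes tested at 0.05. A preparation is 1 pool of islets divided over the conditions, so its number pairs the libraries: once condition means were removed, libraries sharing a preparation correlated at 0.331 on average, and at 0.194, 0.373 and 0.425 within preparations 1, 2 and 3. Over 19 pairs of libraries in the same group, chi-square divided by its degrees of freedom was at least 29.0, so neither library of any such pair was a copy of the other; pairs across groups were not compared. Alternatives were DESeq2 1.42.0, library size alone, no low-count filter, no preparation term, only the conditions compared, each preparation left out, and, added after seeing the data, each library left out and a term for ambiguous reads.

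By plan, members given with values passed in a comparison (up to 8 each way) or had the smallest p where none passed. A fixed set of collagens, gelatinases and TIMPs, with Mmp14, Sparc and Fn1, was added. Outside this plan, some members were also given where they did not pass, among them Mmp17, Col11a2, Mmp12, Mmp13, Col18a1 and Col15a1. Members, lists and the groups' double reading were chosen with earlier results of these data known. The scripts were tested on simulated data. Counts below 3 lie under the detection floor taken here, which covers counting error alone. No value was removed or changed for it. Such counts, as the 2 reads of Col13a1 in condition 4 preparation 3, were used as they stand. Some genes of the lists that the rule would name are not reported here.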

Additional observations from a re-analysis of the deposited data

How the results depend on the processing

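The preparation is the replicate block of every test. With no replicate block, 3 members in place of 10 were called for condition 4 against condition 3 and 1 in place of 7 for condition 3 against condition 1; the other counts kept within 1.5 times, with 5 in place of 6 for 24 h against 3 h under compound D. With DESeq2 there were 16 for condition 4 against condition 3, 13 for condition 3 against condition 1, and 1 for each of condition 2 against condition 1 and condition 5 against condition 2. With library size alone there were 2 for 24 h against 3 h under compound D, 0 for compound E against compound D, 1 for condition 4 against condition 3, and 2 for condition 3 against condition 1. With only the conditions compared there were 0 for compound E against D, 21 for condition 4 against 2, 5 for condition 4 against 3, 0 for condition 3 against 1, 0 for condition 5 against 3, and 1 for condition 5 against 2. With the term for ambiguous reads 1 remained for compound E against D. The cause was not tested. The share of all genes called under each alternative is not given, so these counts describe how the calls held and are not set against a background.

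Leaving out a preparation or a library gave 1 to 8 members for 24 h against 3 h under compound D and 0 to 2 for compound D against 24 h GLT. For the comparisons of compound E no range is given, since some of these fits left a single library with compound E. In those comparisons, too, the calls moved. It gave 1 to 11 for condition 4 against 2, 0 to 12 for condition 4 against 3, 0 to 9 for condition 3 against 1, 0 to 1 for condition 2 against 1 and 0 to 18 for condition 5 against 3. The counts stayed at 0 for 3 h GLT with compound D against control, for condition 5 against 2 and for the change of the GLT effect. Of 50 member calls, 0 passed under every alternative and 0 changed sign. Library size alone moved the median of all genes by -0.40 for compound E against 24 h GLT, 0.26 for condition 4 against 2, -0.27 for condition 2 against 1, and 0.15 for condition 5 against 3.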

Other observations

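The single library of 3 h GLT with compound E (preparation 2) was set beside the 3 h GLT with compound D library of the same preparation, with no replicate check. Of the 44 members 7 were more than 1.5-fold higher with compound E and 1 was more than 1.5-fold lower, Timp4. Col1a1 had 209 CPM with compound E and 122 CPM with compound D, and Col1a2 had 104 CPM with compound E and 67.9 CPM with compound D. Fbn1 had 16.5 CPM with compound E and 10.7 CPM with compound D. Mmp13 had 23.0 CPM with compound E and 32.5 CPM with compound D, and Col18a1 had 54.8 CPM with compound E and 39.7 CPM with compound D.

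Preparation 3 differed from preparations 1 and 2 in several members across the 6 conditions with all preparations. Postn was above the mean of the other preparations in 6 of 6 conditions (median ratio 1.44), and Sparc was below it in 6 of 6 (0.653). The summed duct markers were above it in 5 of 6 conditions (2.13), and the summed beta cell markers had a median ratio of 0.388.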
